A study of Mus musculus with 24 samples.

Results

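Venus-negative epithelial cells of the duodenum were compared directly with Venus-negative cells of the jejunum in Guca2a-Venus mice, over all genes. The libraries were assigned by the labels alone, as the samples labelled GFP negative from each of the 2 tissues, which gave 3 libraries of the duodenum and 3 of the jejunum out of 24 libraries in the series. In this mouse the yellow fluorescent protein Venus stands in place of the *Guca2a* coding sequence on a transgenic bacterial artificial chromosome, so that the guanylin promoter drives it, and the line comes from a single founder that was crossed to C57Bl6J. All 6 libraries carry this transgene, and the labels name no treatment. Single cells were sorted after dead cells, debris without nuclear stain and CD45+ immune cells had been excluded. The negative fraction held every remaining cell without fluorescence. By the paper's flow cytometry, Venus-positive cells were far more frequent in the jejunum than in the duodenum. The paper proposes that mature enterocytes carry Venus in the jejunum but not in the duodenum. The negative gate thus left out different cells in the 2 regions, and its part in the results below was not tested. The other 18 libraries are the Venus-positive cells of the same regions and both sorts of the ileum and colon, and they enter here only for the shared estimate of spread and where they are set beside a result. The study used 3 mice, but the labels give neither the mouse of each library nor its age.

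The duodenum is the first stretch of the small intestine, where acid from the stomach is neutralised, pancreatic zymogens are activated by enteropeptidase and most iron and much calcium is taken up. The jejunum carries out the bulk of the digestion and absorption of peptides, sugars and fat at the microvilli of its enterocytes. Transcription factors with a regional pattern, such as Pdx1 in the proximal gut, mark the epithelium along this axis.

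Between 15086863 and 21114053 reads were counted on genes per library in the duodenum, and between 16407035 and 20120064 in the jejunum. Mitochondrial transcripts took 64.6% to 76.4% of these counts in the duodenum and 61.2% to 78.8% in the jejunum. Levels are given as CPM, a gene's count scaled to a common library size by edgeR's TMM method. Detection was taken to begin at 3 counts, which stood for 0.181 to 0.228 CPM and allows for counting error alone, since amplified reads without identifiers may copy one molecule. Pairs of libraries within a region varied beyond counting noise (chi-square divided by its degrees of freedom, 25.4 to 140). Jejunum library 3 stood apart from the other 2 for genes of enteroendocrine cells (*Chgb* at 143 CPM against 635 and 833). Jejunum library 2 stood apart for genes of MHC class II presentation, whose 8 members summed to 17.4 to 189 CPM in the jejunum and 10.4 to 30.3 CPM in the duodenum. The epithelial label held in both regions. The 10 enterocyte markers summed to 894 to 1364 CPM in the duodenum and 1148 to 1388 CPM in the jejunum, the 10 goblet markers to 319 to 446 and 316 to 466 CPM, and the 12 stem cell genes to 1854 to 2483 and 1703 to 2674 CPM. Markers of B cells, T cells, myeloid, endothelial, stromal, neural and red cells summed to at most 18.3 CPM per list in any of the 6 libraries, and none of their members passed the test. Of these lists, stromal and muscle markers summed to 1.44 to 10.2 CPM in the duodenum and 0.152 to 1.99 CPM in the jejunum, with 2 of 6 members tested wholly higher in the duodenum and a median log2 fold change of 3.50. Over all genes tested, 4.45% lay wholly higher and the median was -0.06. In sorted bulk samples, fewer cells of a type and less RNA per cell cannot be told apart, and neither can a change within a cell type from a different mix of cells left in the negative gate.

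Of 15044 genes tested with edgeR's quasi-likelihood method, with p-values adjusted by Benjamini-Hochberg over all of them, 46 were higher in the duodenum (0.306% of the genes tested) and 63 were lower (0.419%), at an adjusted p under 0.05. For all 109, the 3 libraries of one region lay beyond the 3 of the other. Their selection on these same libraries favours this, so it is no further support. Of all genes tested, 4.45% lay wholly higher in the duodenum and 6.70% wholly lower. At an unadjusted p under 0.05 there were 332 higher and 605 lower genes. These counts are not adjusted for the 15044 tests, so they do not measure how many genes differ. The smallest change that passed was a log2 fold change of 1.12, and the median over all genes tested was -0.06. Proteins were encoded by 106 of the 109. Leaving out 1 library moved the number of lower genes to as few as 34 (without duodenum library 2), 39 (without jejunum library 2) and 42 (without duodenum library 3), and that of higher genes to as few as 32 (without duodenum library 3).

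Leading genes were taken as the 12 protein-coding genes per direction with the largest fitted change among those called, with a mean of at least 10 CPM in the higher region. Larger fitted changes of genes below that level, such as *Otop3* and *Nkx6-3*, are given further on. Among the 12 leading genes higher in the duodenum were an enzyme that activates pancreatic proteases, an intestinal alkaline phosphatase, the iron exporter ferroportin, a cytosolic calcium carrier and Pdx1 itself. *Tmprss15* on chr16:78953008-79091097 encodes enteropeptidase, which activates trypsinogen at the brush border. It stood at 8.84, 20.0 and 12.3 CPM in the 3 duodenum libraries and at 0.152, 0 and 0 CPM in the jejunum. The jejunum thus held 2 reads of this gene against 604 in the duodenum (edgeR adjusted p = 1.32e-05). Scaled to library size, the ratio was 314 with a 95% exact counting interval of 86.5 to 2597. Such intervals, here and below, pool the reads of a region and cover counting error alone, not the spread between libraries. Changes given against a floor of 3 counts pool the reads in the same way. *Akp3*, the duodenal alkaline phosphatase on chr1:87124973-87127912, reached 101, 210.3 and 152 CPM in the duodenum and 0.911, 1.54 and 0.605 CPM in the jejunum. Its log2 fold change of 7.23 ± 0.51 (SE) had the smallest adjusted p of this comparison (1.51e-10). *Reg1*, a secreted C-type lectin of the regenerating family, was at 71.6, 224 and 194 CPM against 3.87, 5.92 and 6.05 CPM (log2 fold change 4.94 ± 0.44). *Akp3* and *Reg1* belong to families with close relatives, so a part of their reads may have been assigned to or from a paralog.

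**Figure D1:**
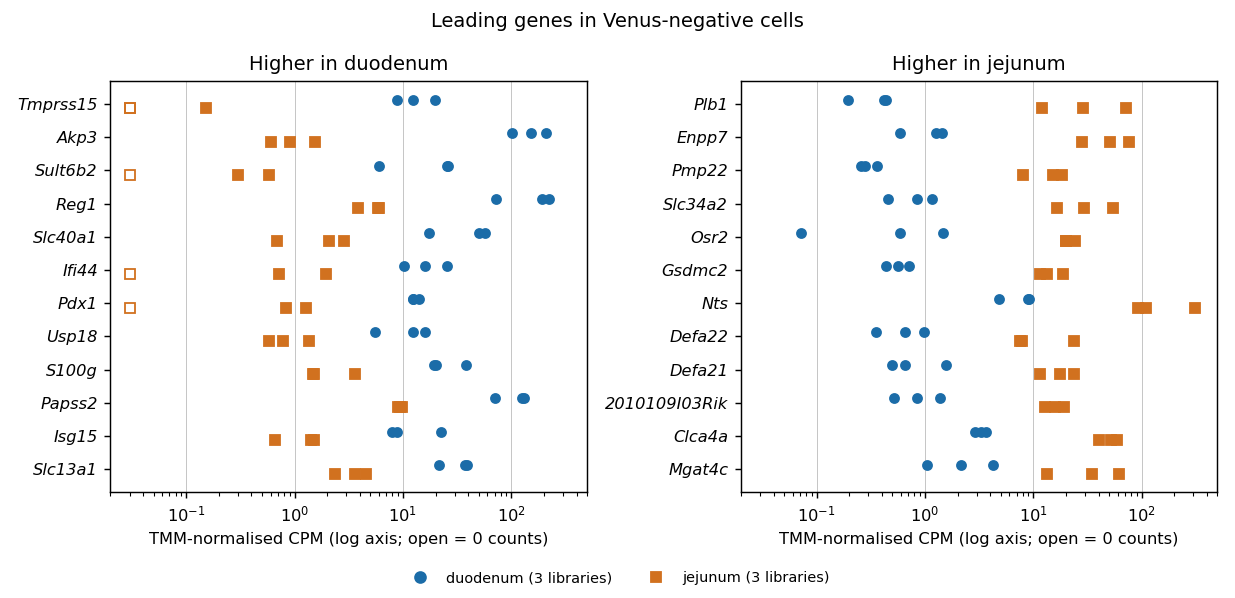
Level of the 12 leading genes in each direction, in TMM-normalised CPM on a log axis, with 1 point per library (circles, duodenum; squares, jejunum; open symbols at the left edge, 0 counts). The 3 libraries of one region lie beyond the 3 of the other for each of the 24 genes, as the rule for choosing them required.

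The promoter of *Tmprss15* is shown because the gene had 2 reads in the jejunum and because it holds the letters TTTATG that CDX factors, the caudal homeobox proteins of the gut, recognise. The window covers 250 bases before and 50 after the start of the RefSeq transcript (GRCm38.p6, chr16:79091048-79091347, minus strand), and the capitals mark TTTATG, 146 to 141 bases before the start.
Tmprss15: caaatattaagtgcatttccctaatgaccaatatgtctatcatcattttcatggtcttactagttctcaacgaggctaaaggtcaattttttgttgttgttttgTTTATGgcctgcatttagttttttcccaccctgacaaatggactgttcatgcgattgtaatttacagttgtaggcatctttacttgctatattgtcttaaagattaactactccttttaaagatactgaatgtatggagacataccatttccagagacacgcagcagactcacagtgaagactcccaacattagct
The letters TTTATG, on either strand, stand in 6.52% of the 10365 windows that could be matched to genes tested, and their presence is a description of the sequence alone.

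By the same rule, the 12 leading genes higher in the jejunum were headed by 2 enzymes of lipid digestion. *Plb1*, a brush-border phospholipase on chr5:32232708-32366520, stood at 12.1, 71.0 and 28.7 CPM in the jejunum and at 0.421, 0.195 and 0.433 CPM in the duodenum (log2 fold change -6.72 ± 0.70). *Enpp7* encodes alkaline sphingomyelinase, which splits dietary sphingomyelin, and stood at 28.2, 76.5 and 51.2 CPM in the jejunum and 1.26, 0.584 and 1.44 CPM in the duodenum (-5.57 ± 0.56). Jejunum library 1 was the lowest of its region for both genes and still lay far above the duodenum. *Pmp22*, a small membrane protein best known from myelin and also made in epithelia, was at 15.1, 18.2 and 8.05 CPM against 0.281, 0.259 and 0.36 CPM (-5.49 ± 0.67). The glycosyltransferase *Mgat4c* reached 13.3, 34.5 and 61.6 CPM against 1.05, 4.28 and 2.16 CPM (-3.86 ± 0.49), and the chloride channel accessory protein *Clca4a* 51.9, 59.0 and 40.0 CPM against 2.88, 3.31 and 3.68 CPM (-3.93 ± 0.86). *2010109I03Rik* completed the 12 with *Slc34a2*, *Osr2*, *Gsdmc2*, *Nts*, *Defa21* and *Defa22*, which are described with their groups. *2010109I03Rik* was at 15.9, 19.3 and 12.8 CPM against 0.842, 0.519 and 1.37 CPM. Its call (adjusted p = 0.0467) passed in 5 of 13 alternative analyses and in none of the 6 that left out a library, and that of *Clca4a* passed without any one jejunum library but not without any one duodenum library.

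The window of *Enpp7* (GRCm38.p6, chr11:118987931-118988230, plus strand) is shown as that of a gene of the opposite direction. Its capitals mark AGATAA, the letters that GATA factors recognise, 110 to 105 bases before the start.
Enpp7: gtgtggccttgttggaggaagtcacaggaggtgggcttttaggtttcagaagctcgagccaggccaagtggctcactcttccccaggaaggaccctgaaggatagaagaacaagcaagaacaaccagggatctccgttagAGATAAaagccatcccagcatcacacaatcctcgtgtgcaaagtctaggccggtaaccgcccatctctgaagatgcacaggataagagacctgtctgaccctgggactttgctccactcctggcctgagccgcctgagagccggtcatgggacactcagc
AGATAA stood on either strand in 6.63% of all windows and the HNF4 letters CAAAGTCCA in 0.453%. None of the motifs searched contains another. Windows could be matched for 30 of the 46 higher and 47 of the 63 lower genes, fewer than 80% of each set, so a comparison of shares between these sets is void.

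Of 24 transcription factors with known roles in gut regions, 2 were higher and 2 were lower in the duodenum. Over all genes tested, 0.306% were called higher and 0.419% lower. *Pdx1*, on chr5:147269959-147275848, was at 12.3, 14.2 and 12.5 CPM in the duodenum and 0.835, 1.29 and 0 CPM in the jejunum (log2 fold change 4.20 ± 0.81, edgeR adjusted p = 0.00502), with nearly the same level in all 3 duodenum libraries. DESeq2 did not call it (adjusted p = 0.119). *Plut*, a transcript of the opposite strand that overlaps the 5′ end of *Pdx1* and was named after its values were seen, was also called higher (4.42, 5.32 and 4.83 CPM against 0, 0.0643 and 0 CPM), and because the strand setting of the counting is not given, reads of the pair cannot be told apart with certainty. *Onecut2*, a cut-homeodomain factor, reached 57.7, 50.1 and 34.5 CPM in the duodenum against 15.5, 6.76 and 2.72 CPM (2.52 ± 0.47). *Osr2*, a zinc-finger factor of the odd-skipped family, showed the converse, at 1.47, 0.584 and 0.0721 CPM in the duodenum and 20.1, 24.2 and 19.9 CPM in the jejunum (-4.90 ± 0.47, adjusted p = 1.17e-07). The other 20 did not pass. *Gata4*, a factor of the proximal small intestine, had 44.3, 46.8 and 34.6 CPM against 26.9, 27.6 and 23.8 CPM, 3 libraries above 3, yet its adjusted p was 0.733. The enterocyte factor *Hnf4a* (log2 fold change -0.21 ± 0.28) and the caudal factor *Cdx2* (-0.25 ± 0.30) overlapped between the regions. Outside this list, the homeobox genes *Nkx6-3* and *Meis2*, chosen after their values were seen, were called higher. *Nkx6-3* was at 0.631, 6.74 and 2.52 CPM in the duodenum with no read in the jejunum, at least 51.3-fold higher against a floor of 3 counts over the group. *Meis2* was at 4.91, 2.53 and 8.15 CPM with 2 reads in the jejunum. The stromal markers, low in all libraries, also leaned to the duodenum, and their part in the level of *Meis2* was not tested. *Nkx6-3* passed in 8 of 12 alternative analyses, and not without duodenum library 2 or any one jejunum library, and *Meis2* in 9 of 13, and not without duodenum library 3 or any one jejunum library.

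Of the genes for uptake of iron, calcium, phosphate and folate, 14 were tested, of which 2 were higher and 1 was lower in the duodenum. The shares called over all genes tested were 0.306% higher and 0.419% lower. *Slc40a1* encodes ferroportin, the basolateral exporter through which enterocytes pass iron to the blood. It was at 17.3, 57.1 and 50.8 CPM in the duodenum and 0.683, 2.83 and 2.06 CPM in the jejunum (4.47 ± 0.66, adjusted p = 0.000126). *S100g* encodes calbindin-D9k, which carries calcium through the cytosol, and was at 19.2, 38.5 and 20.3 CPM against 3.64, 1.48 and 1.51 CPM (3.56 ± 0.60). *Slc34a2*, the sodium-phosphate cotransporter of the brush border, changed the other way, from 0.842, 0.454 and 1.15 CPM in the duodenum to 16.4, 54.4 and 29.2 CPM in the jejunum (-5.35 ± 0.53). Other steps of iron handling did not pass the test. The ferric reductase *Cybrd1* was detected near the floor (0.702, 1.49 and 1.15 CPM against 0.152, 0 and 0 CPM, adjusted p = 0.298). The importer *Slc11a2* had 7.44, 8.88 and 7.50 CPM against 5.16, 10.5 and 7.38 CPM, and the ferroxidase *Heph* had a log2 fold change of -0.41 ± 0.26. The ferritin heavy chain *Fth1*, the cytosolic iron store, lay higher in all 3 duodenum libraries (667, 1014 and 863 CPM against 430, 347 and 530 CPM), with an adjusted p of 0.209. The proton-coupled folate transporter *Slc46a1* also lay wholly above the jejunum (5.54, 12.5 and 7.64 CPM against 2.35, 3.60 and 2.66 CPM) with an adjusted p of 0.177. *Epas1*, which encodes HIF-2α, a factor known to activate ferroportin, was called higher at 13.6, 13.9 and 9.95 CPM against 0.911, 4.57 and 1.03 CPM (2.51 ± 0.43) and was named after its values were seen.

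Genes for sulfate uptake and sulfation were grouped after their values were seen. Of 13 tested, 3 were higher in the duodenum and none was lower, where 0.306% of all genes tested were called higher and 0.419% lower. The median log2 fold change was -0.03. The list was formed with these values known, so its counts are no evidence of a direction. *Slc13a1*, the sodium-sulfate cotransporter, was at 21.3, 39.0 and 37.6 CPM against 3.64, 2.38 and 4.54 CPM (3.21 ± 0.39). *Papss2*, on chr19:32595790-32667187, makes the active sulfate donor PAPS and was at 70.0, 131 and 126 CPM against 9.71, 9.07 and 9.44 CPM (3.53 ± 0.35, adjusted p = 1.62e-07). *Sult6b2*, a cytosolic sulfotransferase, was at 6.03, 25.5 and 26.1 CPM against 0, 0.579 and 0.302 CPM (5.95 ± 0.83). The 3 jejunum libraries lay close together for *Papss2*, and the lowest duodenum library lay far above them. Its paralog *Papss1* lay lower in the duodenum (10.9, 16.1 and 10.9 CPM against 17.8, 23.0 and 26.9 CPM, adjusted p = 0.209), and the ubiquitous sulfate transporter *Slc26a2* had a log2 fold change of -0.73 ± 0.26 (adjusted p = 0.383).

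Brush-border hydrolases lay mostly on the side of the jejunum. Of 20 tested, *Tmprss15* was higher in the duodenum and 5 were lower, and 12 lay wholly lower and 3 wholly higher, with a median log2 fold change of -0.99. Over all genes tested, 0.306% were called higher and 0.419% lower, 6.70% lay wholly lower and 4.45% wholly higher, and the median was -0.06. The 5 lower enzymes were *Enpp7* and 4 peptidases. *Naaladl1*, an ileal-type peptidase, was at 10.3, 4.54 and 10.2 CPM in the duodenum and 67.2, 132 and 123 CPM in the jejunum (-3.68 ± 0.38, adjusted p = 2.59e-07). *Mep1a*, on chr17:43474324-43502812, encodes the α subunit of the metalloprotease meprin and was at 5.12, 2.27 and 6.13 CPM against 15.3, 19.7 and 20.4 CPM (-2.04 ± 0.32, adjusted p = 0.000389). *Xpnpep2*, an aminopeptidase that removes residues before proline, was at 2.46, 0.259 and 2.88 CPM against 5.24, 17.2 and 14.6 CPM. The cytosolic dipeptidase *Cndp2*, which the list also counts, was at 25.5, 19.2 and 28.0 CPM against 35.3, 77.3 and 67.9 CPM. The calls of *Xpnpep2* and *Cndp2* passed in 7 of 13 and 6 of 14 alternative analyses and each was lost in 5 of the 6 that left out a library, all but that without jejunum library 1. The number of lower hydrolases was 3 without any one of those same 5 libraries. Lactase (*Lct*, log2 fold change -1.36 ± 0.42, adjusted p = 0.215), sucrase-isomaltase (*Sis*, -0.89 ± 0.31) and maltase-glucoamylase (*Mgam*, -1.09 ± 0.31) lay wholly lower in the duodenum without passing. The alkaline phosphatase *Alpi* lay wholly higher in the duodenum (94.4, 172 and 164 CPM against 35.2, 55.8 and 51.5 CPM, adjusted p = 0.28). *Akp3*, the alkaline phosphatase called higher in the duodenum, is not a member of this list.

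Of 23 genes of dietary fat absorption tested, *Plb1* alone passed, as lower in the duodenum, while 10 lay wholly lower and 2 wholly higher, with a median of -0.39, where 0.419% of all genes were called lower, 6.70% lay wholly lower and 4.45% wholly higher. The chylomicron proteins *Apoa1* (220.4, 317 and 332 CPM against 498, 852 and 618 CPM, adjusted p = 0.424) and *Apob* (210.3, 293 and 228 CPM against 432, 573 and 466 CPM, adjusted p = 0.502) were among those 10. So was the cholesterol importer *Npc1l1* (34.2, 31.2 and 33.9 CPM against 63.9, 105 and 79.5 CPM), at an adjusted p of 0.069. The fatty acid binding protein *Fabp1* lay the other way (135, 128 and 242 CPM against 68.7, 66.1 and 84.8 CPM, adjusted p = 0.2). No gene passed among 16 transporters of amino acids and peptides, where 8 lay wholly lower (6.70% of all genes). The peptide transporter *Slc15a1* had 13.2, 18.5 and 23.2 CPM against 44.4, 47.1 and 59.6 CPM (-1.46 ± 0.38, adjusted p = 0.0784). Among 12 genes of sugar uptake and fructose handling, none passed and the median was 0.02, and among 8 of bile acid handling none passed.

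**Figure D2:**
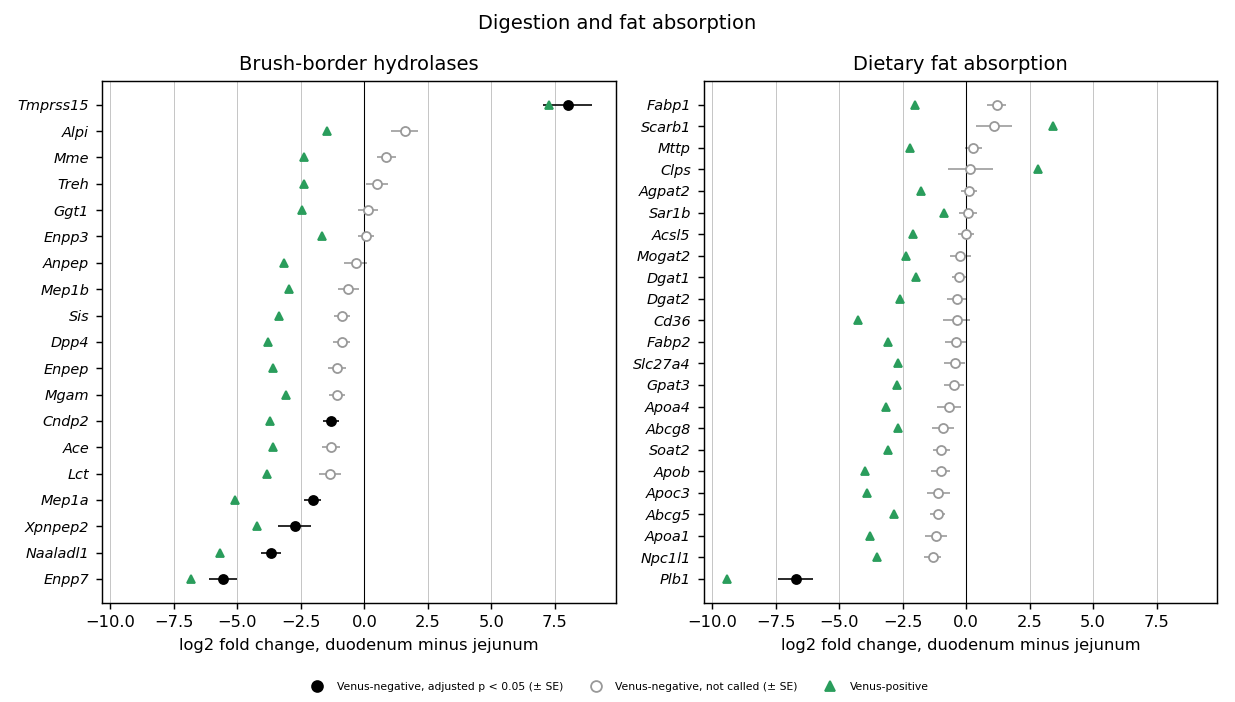
Log2 fold change of duodenum minus jejunum for 19 of the 20 brush-border hydrolases and for genes of dietary fat absorption in Venus-negative cells (circles with SE; filled, adjusted p under 0.05) and in Venus-positive cells (triangles). Most circles lie left of 0, and only *Tmprss15* stands far to the right, at 8.01.

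Sphingolipid genes, grouped after their values were seen, gave 3 lower and no higher genes of 21 tested, with a median of -0.18. Over all genes tested, 0.419% were called lower and 0.306% higher. Because this list was formed with the values known, its counts are no evidence of a direction. The 3 lower genes act in sequence on luminal sphingomyelin and its products. *Enpp7* yields ceramide, the neutral ceramidase *Asah2* splits ceramide, and *Sgpl1* degrades sphingosine 1-phosphate. *Asah2* was at 22.8, 20.0 and 23.7 CPM against 56.1, 70.1 and 66.9 CPM (-1.54 ± 0.33, adjusted p = 0.0134), and *Sgpl1* at 27.9, 17.2 and 27.8 CPM against 46.1, 61.4 and 79.7 CPM (-1.36 ± 0.29, adjusted p = 0.0105). Leaving out any one duodenum library or jejunum library 2 took *Asah2* over the threshold, as did leaving out duodenum library 2 or jejunum library 3 for *Sgpl1*. The lysosomal ceramidase *Asah1* had a log2 fold change of -0.04 and did not pass.

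Several further genes were called lower in the duodenum than in the jejunum outside these lists and were named after their values were seen. Cubilin (*Cubn*), the receptor for intrinsic factor and vitamin B12, was at 4.98, 1.30 and 1.73 CPM in the duodenum and 36.4, 32.2 and 36.7 CPM in the jejunum (-3.71 ± 0.48). The monocarboxylate transporter *Slc5a8* was at 0.0702, 0.13 and 0.288 CPM against 2.12, 6.63 and 12.7 CPM (-5.41 ± 0.67). The scaffold *Pdzk1*, which anchors brush-border transporters, was at 3.72, 5.51 and 6.85 CPM against 9.94, 32.1 and 19.5 CPM, a call that was lost without duodenum library 1, duodenum library 2 or jejunum library 2. *Selenop*, the plasma selenium carrier, was at 151 to 196 CPM against 420.0 to 567 CPM, and its call (adjusted p = 0.0427) was lost when any one library was left out. The libraries of the regions did not overlap for any of these, as for all genes called.

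Among 30 genes of xenobiotic metabolism, 4 were higher in the duodenum, none was lower and 10 lay wholly higher, with a median of 0.44, where 0.306% of all genes were called higher and 4.45% lay wholly higher. They were 2 alcohol dehydrogenases and 2 glutathione transferases. *Adh6a*, on chr3:138313286-138331134, was at 42.7, 89.9 and 69.9 CPM against 12.4, 10.8 and 14.6 CPM (2.42 ± 0.39, adjusted p = 0.000516). *Adh1*, which oxidises ethanol and retinol, was at 164, 209 and 255 CPM against 42.8, 30.9 and 38.6 CPM (2.48 ± 0.43). *Gstm1* was at 12.9, 12.7 and 11.5 CPM against 2.12, 2.38 and 4.11 CPM (2.10 ± 0.40). *Gsta4*, which conjugates products of lipid peroxidation, was at 23.3, 42.5 and 45.1 CPM against 11.7, 8.30 and 13.7 CPM (1.72 ± 0.38). The first 3 passed in all 14 alternative analyses, and *Gsta4* in 10, not without duodenum library 2, duodenum library 3, jejunum library 1 or jejunum library 2. *Gstm3* lay wholly higher (log2 fold change 1.95 ± 0.62) at an adjusted p of 0.238, and the cytochrome *Cyp3a11* had a log2 fold change of 0.27 with overlapping libraries. *Adh6a* and *Mep1a*, both enterocyte markers, were thus called in opposite directions, and of the other 8 enterocyte markers none passed.

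Of 40 genes induced by interferons, 16 were higher in the duodenum, 24 did not pass and none was lower. This list was put together after the values were seen, so its counts and median describe genes chosen with their direction known and are no evidence of it. Of all genes tested, 0.306% were called higher. Of the 40, 31 lay wholly higher against 4.45% of all genes, and the median log2 fold change was 1.82 against -0.06. The number called fell to 9 without duodenum library 3. The summed level of the 40 was 643 to 1149 CPM in the duodenum and 289 to 481 CPM in the jejunum. *Isg15*, a ubiquitin-like modifier on chr4:156199424-156200818, was at 7.86, 8.82 and 22.6 CPM against 1.52, 1.42 and 0.665 CPM (3.45 ± 0.71, adjusted p = 0.00804). *Ifi44* was at 10.2, 16.1 and 25.4 CPM against 0, 1.93 and 0.726 CPM (4.24 ± 0.70). *Usp18*, which removes Isg15 from proteins, was at 5.54, 12.4 and 16.1 CPM against 1.37, 0.579 and 0.786 CPM (3.64 ± 0.66). Duodenum library 3 was the highest of the 6 libraries for each of these 3 genes. The RNA sensors and synthetases followed. *Oas1a*, which makes 2′-5′ oligoadenylate, was at 7.72, 13.0 and 18.1 CPM against 2.12, 1.80 and 2.66 CPM (2.55 ± 0.46), and *Ddx60* at 18.7, 30.5 and 45.0 CPM against 5.77, 5.15 and 7.56 CPM (2.35 ± 0.43). *Oas2* was at 6.66, 7.52 and 5.34 CPM against 0, 0.515 and 0 CPM (5.15 ± 0.87). *Ifi27l2a* had 2.81, 4.67 and 9.37 CPM and no read in the jejunum, at least 83.8-fold higher against a floor of 3 counts over the group. *Ly6e*, a membrane-anchored protein, was at 50.3, 35.5 and 55.2 CPM against 10.0, 11.6 and 10.6 CPM (2.12 ± 0.35). The others called were *Trim30a*, *Bst2*, *Rsad2*, *Rtp4*, *Ifi27*, *Rnf213*, *Ifi27l2b* and *Samd9l*, with log2 fold changes between 1.12 and 3.31.

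*Irf7*, a transcription factor of this programme that is itself induced, was at 17.4, 25.9 and 38.6 CPM against 8.65, 13.1 and 7.44 CPM (1.49 ± 0.40, adjusted p = 0.102). Besides the 9 members called without duodenum library 3, there were 10 without jejunum library 1 or without jejunum library 3, and 13, 16 and 17 in the other 3 leave-one-out analyses. *Isg15* lost its call without duodenum library 3 and without jejunum library 3. In Venus-positive cells, which are other libraries, 9 of the 40 were higher in the duodenum and 2 lower, with a median of 0.52, and the difference between the sorts passed the test for 7. These are 22.5%, 5% and 17.5% of the list, where 18.4%, 14.8% and 14.6% of all genes tested were called, so the higher and interaction counts lie near the background and are no result about these genes.

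**Figure D3:**
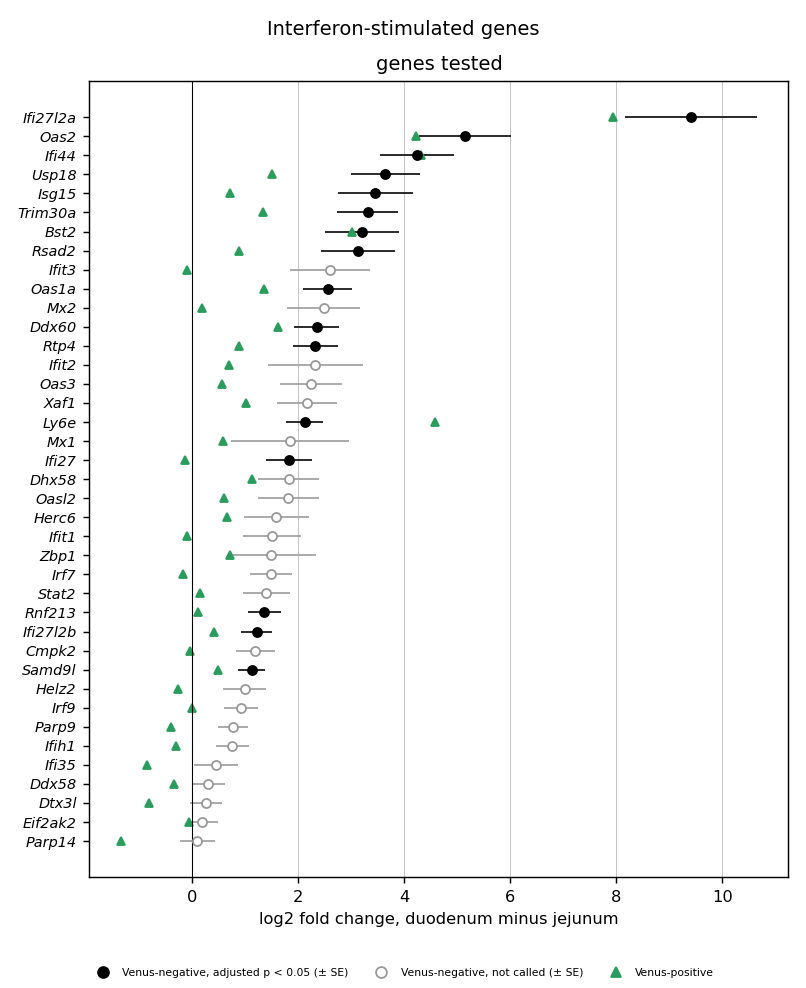
Log2 fold change of duodenum minus jejunum for 39 of the 40 interferon-stimulated genes in Venus-negative cells (circles with SE; filled, adjusted p under 0.05) and in Venus-positive cells (triangles). All 39 circles lie right of 0, with 16 of them filled, and that of *Ifi27l2a*, which had no read in the jejunum, depends on the prior count of the fit.

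The *Isg15* window (GRCm38.p6, chr4:156200769-156201068, minus strand) is printed because its gene moved with this group and because it holds the interferon response element, spelled GAAA, any 2 bases and GAAA again, 3 times in overlapping succession, from 78 to 57 bases before the start, shown in capitals. This motif was added after the values were seen.
Isg15: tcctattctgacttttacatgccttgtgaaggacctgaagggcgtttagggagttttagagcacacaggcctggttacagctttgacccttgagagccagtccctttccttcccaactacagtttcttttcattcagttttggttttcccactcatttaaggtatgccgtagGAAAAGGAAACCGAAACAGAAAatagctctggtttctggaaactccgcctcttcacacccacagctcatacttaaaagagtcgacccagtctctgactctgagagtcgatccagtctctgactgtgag
On either strand it stood in 2.95% of the 10365 windows. Of the 26 interferon-stimulated genes with a window, 13 held it. Those included *Oas1a*, *Ddx60*, *Bst2*, *Rsad2* and *Trim30a* among the genes called higher, and not *Ifi44*, *Rnf213* or *Samd9l*. With windows for 26 of 40 members, fewer than 80%, no share is compared.

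Of 19 enteroendocrine hormone and granule genes tested, 1 was higher and 1 lower in the duodenum, where 0.306% of all genes tested were called higher and 0.419% lower. *Cck*, the hormone that releases bile and pancreatic enzymes, was at 87.1, 109 and 164 CPM in the duodenum and 36.8, 30.9 and 17.4 CPM in the jejunum (2.08 ± 0.48, adjusted p = 0.0227). *Nts*, neurotensin, changed the other way, at 9.05, 4.86 and 9.01 CPM against 309, 109 and 91.8 CPM (-4.48 ± 0.65, adjusted p = 0.000112). The granule protein *Chgb*, shared by these cells, was at 569.7, 479.9 and 454 CPM against 635, 833 and 143 CPM, without a call. Jejunum library 3 was the lowest for *Chgb* and *Cck*, and *Cck* was no longer called without it (log2 fold change 1.83), nor without jejunum library 2, duodenum library 2 or duodenum library 3. *Nts* passed in all 14 alternative analyses. Ghrelin (*Ghrl*) lay wholly higher in the duodenum (log2 fold change 2.26 ± 0.76), with an adjusted p of 0.315, and *Gip* overlapped between the regions.

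Of 12 genes of epithelial defence tested, *Reg1* was higher and *Duox2* lower in the duodenum, and the other 10 did not pass. Of all genes tested, 0.306% were called higher and 0.419% lower. *Duox2* encodes the dual oxidase that releases hydrogen peroxide to the lumen and was at 2.32, 1.56 and 1.95 CPM against 3.57, 45.5 and 26.4 CPM (-3.70 ± 0.71, adjusted p = 0.00378). Jejunum library 1 lay close to the duodenum for this gene. The antibacterial lectins *Reg3b* (85.9, 413 and 164 CPM against 249.7, 1579 and 854 CPM) and *Reg3g* (37.3, 171 and 111 CPM against 103, 764 and 482 CPM) overlapped and did not pass. The α-defensins of Paneth cells *Defa21* and *Defa22* were lower in the duodenum, *Defa21* at 0.491, 1.56 and 0.649 CPM against 17.7, 11.6 and 23.7 CPM (-4.27 ± 0.68) and *Defa22* at 0.351, 0.973 and 0.649 CPM against 7.82, 7.53 and 23.6 CPM (-4.28 ± 0.69). The list of Paneth cell genes holds only 1 of these calls. Of its 10 members tested, 1 was lower, where 0.419% of all genes tested were called lower. The 9 that did not pass included *Lyz1* (60.6, 225 and 62.3 CPM against 94.9, 63.4 and 210.0 CPM) and *Defa24* (-0.59 on the log2 scale). α-Defensin genes are near-identical copies, so the split of reads between them is uncertain. Gasdermins of the C cluster, which are also close copies, were lower as well, *Gsdmc2* at 0.561, 0.713 and 0.433 CPM against 11.5, 13.4 and 18.9 CPM (-4.66 ± 0.74) and *Gsdmc4* at 1.26, 2.27 and 0.793 CPM against 12.5, 18.2 and 32.1 CPM (-3.84 ± 0.64). *Gsdmc3* had 2 reads in the duodenum and 146 in the jejunum, a ratio of 70.3 with a 95% exact counting interval of 19.1 to 586. *Gsdmc4* and *Gsdmc3* were named after their values were seen, as were the inflammasome genes *Naip5* and *Naip6*. *Naip5* and *Naip6* had log2 fold changes of -1.33 ± 0.32 and -1.38 ± 0.34, and passed in 6 and 5 of 14 alternative analyses.

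The guanylin genes were lower in Venus-negative cells of the duodenum. *Guca2a*, on chr4:119637704-119639471, encodes guanylin and drives the reporter by which the cells were sorted. It was at 2.67, 6.74 and 6.42 CPM in the duodenum and 24.3, 21.5 and 27.7 CPM in the jejunum (-2.21 ± 0.34, adjusted p = 0.000314), in cells that all lacked Venus fluorescence. *Guca2b*, uroguanylin, was at 48.1, 53.0 and 56.7 CPM against 99.8, 123 and 149 CPM (-1.23 ± 0.31, adjusted p = 0.048), a call that passed in 4 of 14 alternative analyses and in none of the 6 that left out a library. The receptor *Gucy2c* had 48.6, 44.4 and 53.7 CPM against 53.4, 73.8 and 50.2 CPM (-0.27 ± 0.26), and neither the kinase *Prkg2* nor the chloride channel *Cftr* passed. The cells were gated on a reporter of *Guca2a*, and the part that the gate or transcripts of the transgene had in these values was not tested.

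Of 12 genes of Brunner's glands and the stomach, 5 were tested, of which the trefoil peptide *Tff2* was called higher (0.306% of all genes tested) and the other 4 did not pass. It stood at 2.60, 5.06 and 9.16 CPM in the duodenum and 0, 0 and 0.0605 CPM in the jejunum, with 1 read there and 242 in the duodenum, a ratio of 251 with a counting interval of 44.7 to 9973. The list summed to 26.3 to 37.6 CPM in the duodenum and 2.78 to 6.53 CPM in the jejunum. *Gkn3* (21.2, 17.7 and 18.1 CPM against 5.69, 3.60 and 2.54 CPM) and *Pgc* (4.42, 2.98 and 3.32 CPM against 0.531, 0.193 and 0.181 CPM) lay wholly higher without passing, 3 members had no read in the 6 libraries, and the gland mucin *Muc6* was at 0.561, 0 and 1.44 CPM against 0, 0.193 and 0 CPM. The proton channel *Otop3*, named after its values were seen, was at 2.81, 6.09 and 11.9 CPM with no read in the jejunum, at least 104-fold higher against a floor of 3 counts over the group. Of 12 genes of the exocrine pancreas, 9 had no read in any of the 6 libraries. The list summed to 29.5 to 41.5 CPM in the duodenum and 40.4 to 54.7 CPM in the jejunum, mostly from *Zg16* (27.2, 29.8 and 35.8 CPM against 37.3, 48.0 and 51.4 CPM), which is also a goblet marker, and neither *Zg16* nor *Cela1*, the 2 tested, passed. The part that cells of these glands had in the genes higher in the duodenum was not tested.

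Among 15 genes of bicarbonate, chloride and proton transport, the sodium-bicarbonate cotransporter *Slc4a7* was higher in the duodenum at 37.3, 51.7 and 41.4 CPM against 14.9, 13.0 and 14.9 CPM (1.61 ± 0.27, adjusted p = 0.0006). The other 14 did not pass, where 0.306% of all genes tested were called higher. No member was called among 21 genes of fatty acid oxidation and ketogenesis, 20 of cholesterol synthesis, 12 of stem cells, 20 of the cell cycle, 10 of goblet cells, 10 of tuft cells, 5 of M cells, 7 of MHC class II presentation, 13 immediate early and heat shock genes and 5 sex-linked genes. The medians of the cell cycle list (0.05), the goblet list (0.06) and the stem cell list (-0.17) lay close to that of all genes. The median of the MHC class II list was -2.06, with jejunum library 2 at 88.8 CPM of *Cd74* and the other 2 at 6.15 and 31.5 CPM.

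Duodenum and jejunum were also compared in Venus-positive cells, in libraries that share none with the negative cells. The paper describes these cells as mainly Paneth and goblet cells in the duodenum and mainly mature enterocytes in the jejunum. The part of this mix in the values below was not tested. In positive cells, 2765 genes were higher (18.4% of the genes tested) and 2226 lower (14.8%) in the duodenum. Of the 46 genes higher in negative cells, 29 were also called higher in positive cells and 1 was called lower, and 43 had a higher value. Of the 63 lower genes, 51 were also called lower and 1 higher, and 57 had a lower value. Leaving out 1 library gave 23 to 29 genes called higher in both sorts and 26 to 46 called lower in both. A contrast of the 2 differences was called for 2197 genes (14.6%), for 13 of the 46 and for 26 of the 63. The 20 hydrolases had a median of -3.47 in positive cells against -0.99 in negative cells, and 19 of them were lower there. For 18 of the 26 lower genes the difference was the larger one in positive cells, as for *Mep1a* (-5.11 against -2.04, interaction adjusted p = 6.65e-05). *Papss2* had a log2 fold change of 0.14 in positive cells (adjusted p = 0.777) against 3.53 in negative cells, and the contrast of both passed (adjusted p = 2.9e-05). *Adh6a* and *Guca2a* were called in opposite directions. *Adh6a* was at 31.4 ± 13.6 CPM (SD, n = 3) in positive cells of the duodenum and 61.8 ± 21.4 CPM in those of the jejunum, and *Guca2a* at 285 ± 94.1 and 153 ± 50.8 CPM. The labels do not say which libraries came from one mouse, so both sorts were treated as separate samples.

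**Figure D4:**
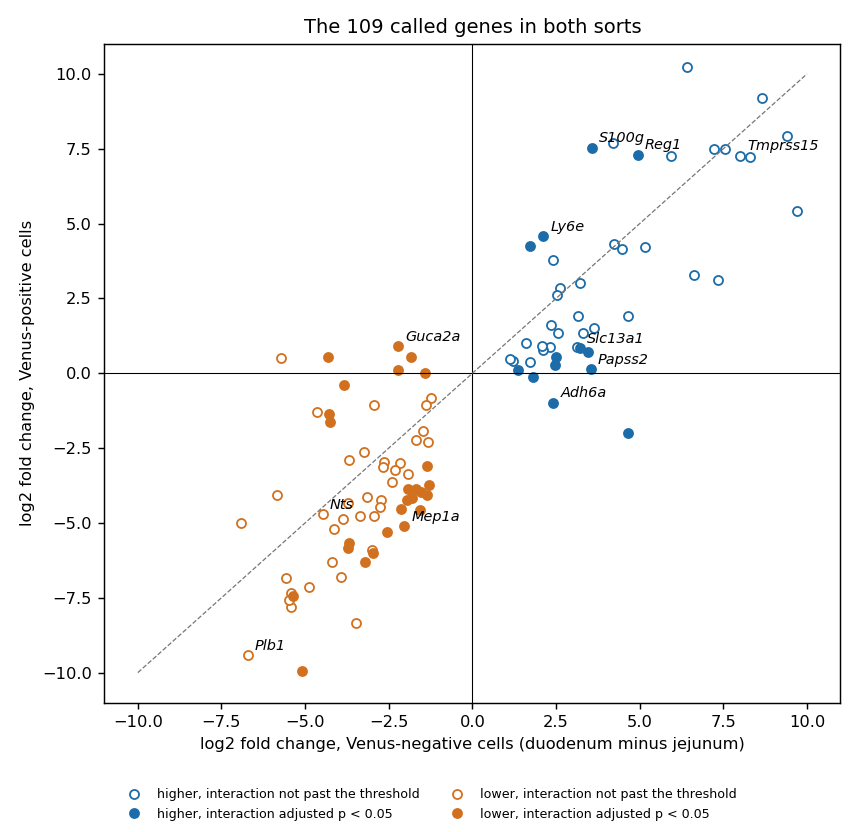
Log2 fold change of duodenum minus jejunum in Venus-negative (horizontal axis) and Venus-positive cells (vertical axis) for the 109 genes called in negative cells, filled where the contrast between the sorts passed (blue, higher in negative duodenum; orange, lower). The points in the upper left and lower right, among them *Guca2a* and *Adh6a*, changed sign between the sorts.

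Levels of the called genes in the ileum and colon were set beside these. The mean level in negative cells was highest in the duodenum for 41 of the 46 and in the colon for 5, an order that the choice of genes higher in the duodenum than in the jejunum favours. The ileum mean lay above the jejunum mean for 14 of the 46 and the colon mean for 25. Choosing genes that are low in the jejunum favours this as well. Some of these means lie below the level of 3 counts, as those of *Nkx6-3* and *Meis2* do in jejunum and colon. Of the 63, 31 peaked in the jejunum, while 17 were highest in the ileum and 15 in the colon. *Reg1* went from 163 ± 80.7 CPM (SD, n = 3 for each region) in the duodenum to 5.28 ± 1.22 CPM in the jejunum, and to 1.04 ± 0.502 and 0.0683 ± 0.0617 CPM in ileum and colon. *Slc13a1* and *Slc40a1* dipped in the jejunum, *Slc13a1* from 32.6 ± 9.83 to 3.52 ± 1.08 CPM with 21.1 ± 8.44 CPM in the ileum, and *Slc40a1* from 41.7 ± 21.4 to 1.86 ± 1.09 CPM with 12.6 ± 8.21 CPM in the ileum and 16.4 ± 2.16 CPM in the colon. *Enpp7* peaked in the jejunum at 52.0 ± 24.2 CPM, with 0.949 ± 0.583 CPM in the ileum and 0.535 ± 0.381 CPM in the colon. *Slc34a2* kept its level into the ileum (25.7 ± 11.6 CPM) and fell off in the colon (1.22 ± 0.429 CPM), whereas *Gsdmc2* was highest in the colon (49.2 ± 24.9 CPM). These levels along the gut are a description without a test.

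**Figure D5:**
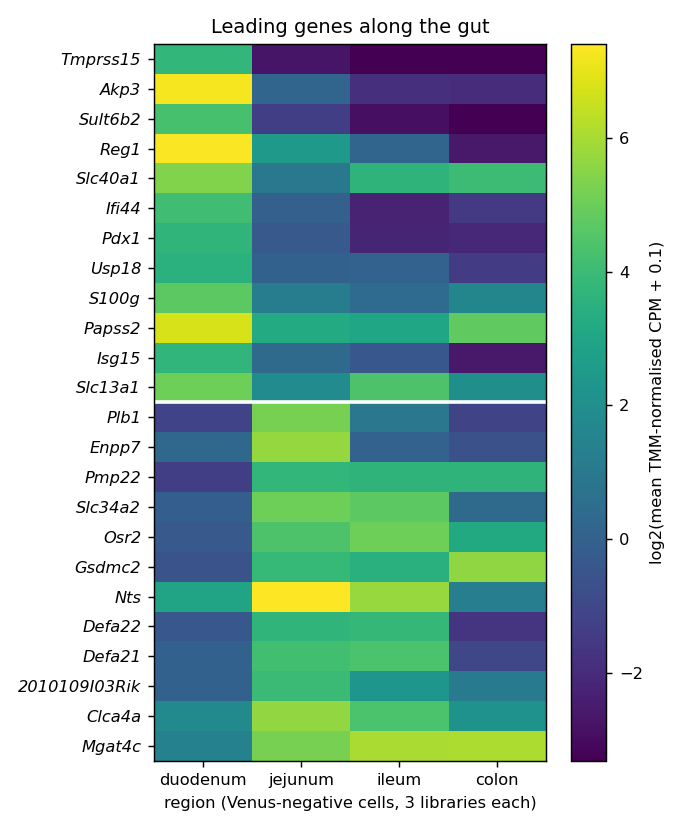
Mean level of the 24 leading genes in Venus-negative cells of 4 regions (columns), as log2 of the mean CPM plus 0.1 by colour; the white line separates genes higher in the duodenum (above) from those higher in the jejunum. The upper genes are brightest at the left, and the lower genes are dark in the duodenum and vary in how far they extend into the ileum and colon.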

How the data were processed

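RNA of sorted cells was made into libraries from 10 ng with a stranded total RNA kit and sequenced single-end by the study. The authors aligned reads to GRCm38 with STAR (2.5.1 per their processing notes), counted reads per gene and deposited raw counts, without normalisation. The annotation and strand setting of the counting are not given in the sources used here. Lines of the table for reads that were unmapped, multimapping, outside genes or ambiguous were left out of library sizes and tests. In the 6 libraries they took 6.09% to 14.5%, 18.0% to 24.3%, 11.6% to 17.2% and 0.766% to 1.36% of all reads. No column of the table lacked a sample.

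Names and positions came from GENCODE M21 (GRCm38), which held 53360 of the 53465 genes, and promoter windows from RefSeq (GRCm38.p6), matched by symbol to the window nearest the annotated start. In R 4.3.3, edgeR 4.0.16 (limma 3.58.1) filtered genes (filterByExpr, minimum count 10, minimum total 15), normalised by TMM and fitted 1 quasi-likelihood model to all 24 libraries in 8 groups (16 residual degrees of freedom). The contrast of duodenum minus jejunum was taken in negative cells, in positive cells and as their difference. P-values had Benjamini-Hochberg adjustment and a threshold of 0.05. Each SE is an approximation, the absolute log2 fold change divided by the square root of the F value of its test. The procedure was tested on simulated data, and no value from that test is given or used here. Per the study, each region was sampled from 3 mice, so the 3 libraries of a group were taken as separate mice. The labels do not say which library is which mouse, so nothing was paired.

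Named genes were the 12 protein-coding genes that changed most on the log2 scale, per direction, provided that they passed the threshold, had at least 10 CPM in the higher region and showed no overlap, members of gene lists with preference for called genes of high level, *Adh6a*, *Mep1a*, *Guca2a*, *Guca2b* and *Gucy2c*. The comparison, the lists and this rule were chosen with earlier results of these data known, and lists or genes chosen after these values were seen are marked in the text. Alternatives were DESeq2 1.42.0, RLE factors, library size alone, other filters, protein-coding genes alone, the 6 libraries alone, the i5 index as covariate and leaving out each library. Stricter thresholds were applied to the counts of genes. A few members of the lists are counted but not reported here by name.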

Additional observations from a re-analysis of the deposited data

Results flagged for a closer look

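The difference between duodenum and jejunum was not the same in Venus-negative and Venus-positive cells for a share of the called genes, by edgeR's test of the difference between both contrasts with Benjamini-Hochberg adjustment over all genes. It passed for 13 of the 46 genes higher in the negative duodenum and for 26 of the 63 lower genes. The values below are that difference on the log2 scale, negative minus positive.

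Among the higher genes, the regional difference was smaller in positive cells, or of the other sign, for *Ttll6* (6.63), *Papss2* (3.39), *Isg15* (2.75), *Slc13a1* (2.37), *Epas1* (1.96), *Adh1* (2.21), *Adh6a* (3.40), *Ifi27* (1.96) and *Rnf213* (1.26). It was larger in positive cells for *Reg1* (-2.36), *S100g* (-3.97), *Ly6e* (-2.46) and *Gsta4* (-2.53).

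Among the lower genes, the regional difference was larger in positive cells for *Cndp2* (2.42), *Ano6* (2.73), *Sgpl1* (1.74), *Asah2* (2.41), *Selenop* (3.02), *Gramd1b* (2.16), *Slc7a15* (2.36), *Pdzk1* (1.94), *Ceacam20* (2.28), *Mep1a* (3.07), *Spink1* (2.39), *Lama3* (2.75), *Ocm* (3.02), *Susd2* (3.08), *Naaladl1* (1.99), *Cubn* (2.13), *Npl* (4.84) and *Slc34a2* (2.10). It was smaller in positive cells, or of the other sign, for *Gsn* (-1.44), *Tfpi* (-2.37), *Guca2a* (-3.11), *Vopp1* (-2.32), *Gsdmc4* (-3.45), *Defa21* (-2.63), *Defa22* (-2.93) and *Scd1* (-4.86). *Ttll6* rested on 33 reads in the negative duodenum and 1 in the negative jejunum, and *Scd1* on 3 and 69. Their means in positive cells of the duodenum and jejunum were 0.0341 and 0.161 CPM for *Ttll6* and 0.386 and 0.269 CPM for *Scd1*. *Gsdmc4* had 0.488 and 0.682 CPM there. These levels lie below or near that of 3 counts, so the size and sign of the differences in positive cells are uncertain for these genes. In positive cells of the jejunum, *Defa21* stood at 252 ± 273 CPM and *Defa22* at 173 ± 195 CPM (SD, n = 3). The size of their differences in positive cells is thus uncertain too. The Venus gate differs between both contrasts, and its part in the differences of all genes listed here was not tested.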

How the results depend on the processing

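None of the 109 called genes changed sign in any alternative analysis. Of them, 54 were called in every alternative that tested them, 55 lost the call in at least 1 and 45 in at least 3. DESeq2 called 76 higher genes and 93 lower. Without a filter on low counts, 97 higher and 138 lower genes were called. With at least 10 counts in each of the 6 libraries, 25 were higher and 25 lower, and 21 and 31 of the called genes were not tested. The 6 libraries alone gave 80 higher and 65 lower genes, and no test of the sorts is possible there. At an adjusted p of 0.01, 34 were lower. Leaving out 1 library gave 32 to 47 higher genes, 34 to 57 lower genes (34 without duodenum library 2 and 39 without jejunum library 2) and 1593 to 2063 genes that differed between the sorts. The cause of these changes was not tested except where fewer genes were tested. The counts within gene lists, added after the data were seen, were 9 to 17 interferon-stimulated genes, 3 to 5 lower hydrolases and 3 to 4 higher xenobiotic genes without 1 library. Without 1 library, 23 to 29 of the higher and 26 to 46 of the lower genes were also called in positive cells. No paired analysis was run, because the labels tie no library to a mouse. The replicate numbers used here follow the order of the samples, and a block by that number was not fitted. Genes near 3 counts cannot be compared at this depth.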
